A study of Homo sapiens with 9 samples.

Results

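The transcripts of 7 splicing factors that are recurrently mutated in myelodysplastic syndromes and acute myeloid leukaemia were followed in K562 cells, a human erythroleukaemia line, after depletion of DHX34 or UPF1. The genes were taken by name, with earlier results of these data known: SF3B1, U2AF1, U2AF2, ZRSR2, LUC7L2, PRPF8 and DDX41. They are 7 of the 58214 genes measured, and their 78 isoforms are among 198775 transcripts. All 9 libraries came from cells transfected with siRNA and harvested on day 4. In the SCR group (3 libraries, labelled WT for treatment) the siRNA was a non-targeting pool, in the DHX34 knockdown (3 libraries) it was a pool against DHX34, and in the UPF1 knockdown (3 libraries) the siRNAs were directed against UPF1. The study's methods give the 3 libraries of a group as biological replicates. The genome of the cells was not altered, and each knockdown lowered its target without removing it.

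These factors act where introns are recognised and removed. SF3B1 is the largest subunit of the SF3b part of the U2 snRNP, which holds the branch point. U2AF2 binds the polypyrimidine tract and U2AF1 the AG at the 3′ end of the intron, while ZRSR2 does the corresponding work for the rare introns of the minor spliceosome. LUC7L2 belongs to the U1 snRNP-associated proteins that act at 5′ splice sites, PRPF8 lies at the catalytic centre of the spliceosome, and DDX41 is a DEAD-box helicase found with it. Many splicing factor genes carry isoforms with a premature stop codon, which nonsense-mediated decay (NMD) removes. UPF1 is the central helicase of NMD, and DHX34 is a helicase with a reported part in that pathway.

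Some of the isoforms below differ from the main mRNA by a short alternative stretch that brings in a stop codon. The 3′ splice sites at these stretches are shown first because U2AF1, U2AF2 and SF3B1 act on such sites. Each is given 5′ to 3′ on the transcribed strand of GRCh38, with the intron in lower case and the first 3 bases of the exon in capitals.
SF3B1 cassette exon, chr2:197418949-197418971, minus strand: gtaaagagataattttctagGCT
SF3B1 next exon, chr2:197418586-197418608, minus strand: gttgctgttcttttctgcagGAG
U2AF1 upstream exon of the pair, chr21:43101430-43101452, minus strand: ttatttttttttccccgcagACC
U2AF1 downstream exon of the pair, chr21:43100517-43100539, minus strand: tgttgcgttttgtatttcagACC
U2AF2 extra exon, chr19:55661751-55661773, plus strand: gtttccatttctctttaaagTGA
DDX41 usual acceptor, chr5:177515256-177515278, minus strand: atgtcggttggttttcatagCCA
DDX41 upstream acceptor, chr5:177515337-177515359, minus strand: tcatcatctgcaacttgtagGGG

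The stop codons that these stretches bring in are shown next, because they are what makes the annotation (GENCODE 44) call the isoforms NMD substrates. The stop codon is in capitals.
SF3B1-202, chr2:197418922-197418951, minus strand: gcttctattctgctgctTGAagtcagaact
U2AF1-205, chr21:43100479-43100508, minus strand: cttgaacatttaccgTAAccctcaaaactc
U2AF2-207, chr19:55661771-55661800, plus strand: TGAaatattgtggggctgagatccctcgta
U2AF2-203, chr19:55658954-55658981, plus strand: ctccccagctcctccTGAgcatcctcag
DDX41-210, chr5:177515293-177515322, minus strand: caggctttggggctcTGAgaaagtacctgt
The SF3B1 cassette exon has 56 bases and the U2AF2 extra exon 64, so that each also shifts the reading frame. In U2AF2-207 the stop codon is formed by the first 3 bases of the extra exon. From the end of the coding part to the last exon junction there were 119 bases in SF3B1-202, 856 in U2AF2-207, 450 in U2AF2-203 and 122 in DDX41-210.

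Libraries held 73478797 to 103625443 expected counts, that is, reads as salmon assigned them to transcripts. Levels of genes are given as CPM (counts scaled to a common library size by TMM), and levels compared between genes as TPM, which also takes transcript length into account. DHX34 measured 72.5, 74.1 and 74.7 CPM in SCR and 30.0, 30.0 and 34.0 CPM in its knockdown, a log2 change of -1.23 (SE 0.050, adjusted p = 3.335e-07). UPF1 measured 252.4, 266.0 and 266.8 CPM in SCR and 105.1, 107.2 and 104.4 CPM in its knockdown, a log2 change of -1.31 (adjusted p = 2.408e-10). All 9 erythroid markers were detected, and they summed to 25562 to 27154 TPM in SCR, 23536 to 25636 after DHX34 knockdown and 15519 to 16726 after UPF1 knockdown. Of 12 markers of other cell types 5 stayed below 1 TPM in every library, among them KRT5 and MS4A1 at 0. The highest was EPCAM, at 68.1 to 80.4 TPM over the 9 libraries. The 12 summed to 113 to 116 TPM in SCR, 158 to 166 after DHX34 knockdown and 103 to 109 after UPF1 knockdown. Within that sum SPI1 went from a mean of 21.2 TPM in SCR to 47.4 after DHX34 knockdown, and LYZ from 14.2 to 31.1. EPCAM stayed close (72.3 and 74.2 TPM), while COL1A2 (1.62 to 1.09 TPM) and CD14 (0.061 to 0.016 TPM) were lower. The part of either marker shift in the results below was not tested. Among replicates, DHX34 knockdown replicate 3 stood apart: the chi-square of its counts per gene was 22.4 and 20.2 against the other DHX34 knockdown libraries, where all other replicate pairs gave 5.71 to 9.59. Without it the same number of members was called, 2 at the gene level and 0 for isoforms, usage and events against SCR. In these bulk samples fewer cells of a type and less RNA per cell cannot be told apart.

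Per transcript length, U2AF1 was the most abundant of the 7 in SCR (196 to 228 TPM), followed by U2AF2 (160 to 178 TPM), LUC7L2 (134 to 153 TPM), DDX41 (106 to 110 TPM), SF3B1 (74.4 to 86.6 TPM), PRPF8 (52.3 to 57.3 TPM) and ZRSR2 (4.81 to 5.55 TPM). The ranges of neighbours in this order did not overlap within SCR. The levels of U2AF2 and U2AF1 depend on the annotation. A transcript of 1104 bases that the deposited tables assign to U2AF2 is outside GENCODE 44 and held a further 86.0 to 88.8 TPM. For U2AF1, a near-identical copy (U2AF1L5, described below) held 76.6 to 106.5 TPM in SCR. An 813-base transcript assigned to that copy, also outside GENCODE 44, held 65.4 to 73.6 TPM. ZRSR2 was by far the lowest, at 5.62 to 7.88 CPM over the 9 libraries.

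After DHX34 knockdown 2 of the 7 genes passed the limit of an adjusted p of 0.005 (edgeR quasi-likelihood test): U2AF1 fell and PRPF8 rose. Over all 17004 genes tested 10.4% passed, so 2 of 7 is a count from few genes beside a sizeable background. The median log2 change of the 7 was -0.01, against 0.02 over all genes. After UPF1 knockdown 0 of the 7 passed, while 25.3% of all genes did. There 4 of the 7 had an unadjusted p under 0.05, beside 8130 of all 17184 genes. DESeq2 called 1, U2AF2, beside 5099 of all genes. In edgeR U2AF1 did pass once its counts were summed with those of a near-identical copy, beside 4348 of 17183 genes. The median log2 change of the 7 was -0.07, against 0.02 over all genes. Between the UPF1 and the DHX34 knockdown 1 of the 7 passed, PRPF8, against 17.4% of all genes. The comparisons of the knockdowns with SCR share the 3 SCR libraries, so they are not independent of each other.

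**Figure D1:**
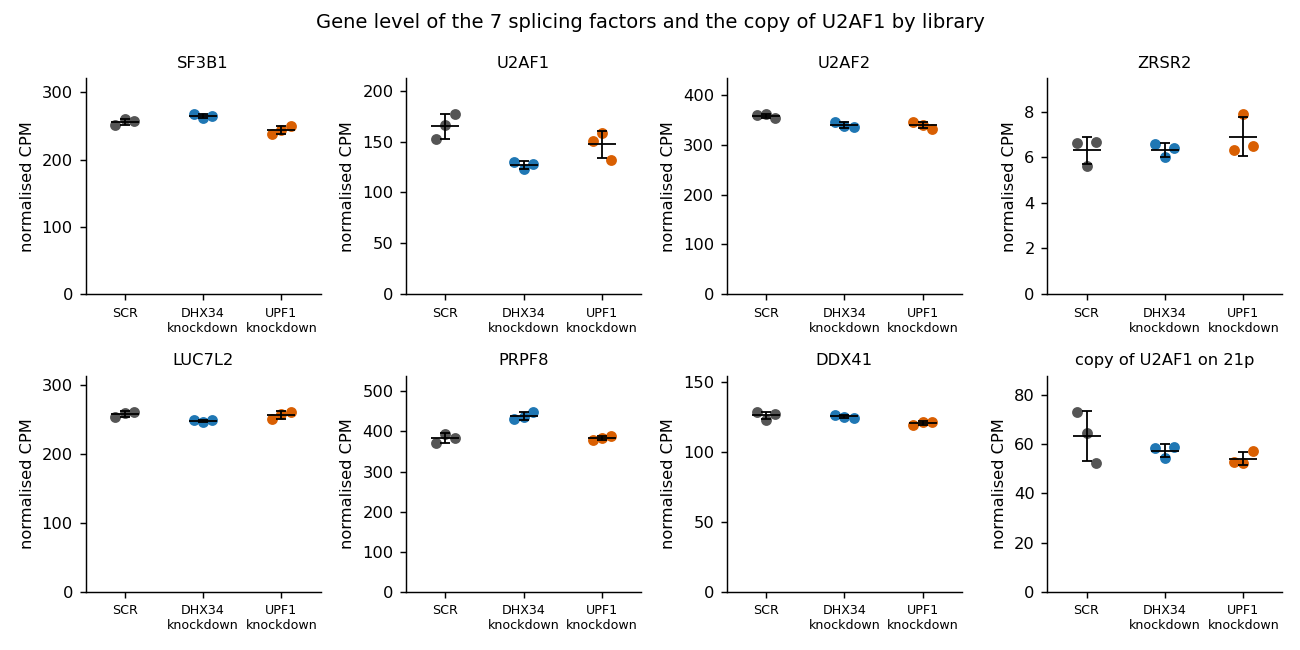
Level of each of the 7 genes and of the near-identical copy of U2AF1 on 21p (normalised CPM) in each library, grouped as SCR, DHX34 knockdown and UPF1 knockdown, with points for libraries and the mean and SD of 3 libraries per group. The 3 DHX34 knockdown libraries lie below all SCR libraries for U2AF1 (122.9 to 130.4 against 152.6 to 176.9 CPM) and above them for PRPF8 (430.7 to 448.3 against 369.9 to 394.2 CPM).

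U2AF1 measured 152.6, 166.2 and 176.9 CPM in SCR, 130.4, 122.9 and 128.0 CPM after DHX34 knockdown, and 151.1, 158.6 and 132.2 CPM after UPF1 knockdown. The DHX34 knockdown libraries were all below SCR, while the UPF1 knockdown libraries overlapped SCR and lay above all DHX34 knockdown libraries. The log2 change in the DHX34 knockdown was -0.38 (SE 0.050, 95% interval -0.49 to -0.27, adjusted p = 0.00039), so that the level fell by 23.0%. With UPF1 depleted it was -0.17 (95% interval -0.31 to -0.04, adjusted p = 0.044), short of the limit. The difference between the knockdowns was 0.22 on the log2 scale (adjusted p = 0.012), also short of it. Genes whose log2 CPM over the 9 libraries ran most like that of U2AF1, among 10062 genes of at least 5 CPM, were RNF115 (Pearson r 0.96), CHEK1 (r 0.95) and ANXA5 (r 0.95). These correlations describe points that share libraries and groups.

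The level of U2AF1 cannot be separated fully from that of a near-identical copy. U2AF1L5 lies on the same chromosome (21:6484623-6499248, minus strand, GRCh38), and the 67-base alternative exons of U2AF1 were identical to those of the copy at 67 of 67 positions. The split of reads between U2AF1 and the copy was made by salmon, so neither level stands on its own. Reads assigned to the copy came to 73.1, 64.5 and 52.5 CPM in SCR, 58.5, 54.2 and 59.1 CPM after DHX34 knockdown and 52.8, 52.4 and 57.2 CPM after UPF1 knockdown. In SCR the highest library of the copy was the lowest for U2AF1, and its lowest was the highest for U2AF1. An 813-base transcript that the authors assign to the copy is outside the annotation used and is not in these CPM. It held 65.4 to 73.6 TPM in SCR, 52.3 to 60.9 after DHX34 knockdown and 57.4 to 60.4 after UPF1 knockdown. Every knockdown library thus lay below SCR for this transcript. The counts of U2AF1 and the copy were also summed without it. The log2 change was then -0.31 with DHX34 depleted (adjusted p = 0.00018) and -0.19 with UPF1 depleted (adjusted p = 0.0014). Both passed the limit. With that transcript included, the changes were -0.33 (adjusted p = 8.6e-05) and -0.22 (adjusted p = 0.00023).

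PRPF8 measured 369.9, 394.2 and 384.8 CPM in SCR, 430.7, 435.7 and 448.3 CPM after DHX34 knockdown, and 378.8, 384.3 and 389.8 CPM after UPF1 knockdown. All DHX34 knockdown libraries lay above all others, and in CPM the UPF1 knockdown libraries lay within the SCR range. In TPM the UPF1 knockdown libraries lay above SCR (62.1 to 64.1 against 52.3 to 57.3 TPM). On the log2 TPM scale the median of all genes also moved upward, by 0.13 in the DHX34 and 0.17 in the UPF1 knockdown. A rise in TPM is therefore not particular to a member, here or below. The log2 change in the DHX34 knockdown was 0.20 (SE 0.037, 95% interval 0.11 to 0.28, adjusted p = 0.0032), so that its level was 14.5% higher. In the UPF1 knockdown it was -0.00 (95% interval -0.07 to 0.07, adjusted p = 1.00), and the direct difference, UPF1 knockdown minus DHX34 knockdown, was -0.18 (SE 0.031, adjusted p = 0.0011). The genes most like PRPF8 over the 9 libraries were DHX29, GRAMD4 and PLXNB2 (r 0.98 each).

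The mRNA of PRPF8 is long, at 7295 bases. With the trend of log2 change on gene length removed, the change in the DHX34 knockdown was 0.04 (adjusted p = 0.50), while U2AF1 kept -0.28 (adjusted p = 0.0043) and the difference of PRPF8 between the knockdowns was -0.18 (adjusted p = 0.0013). The same step gave PRPF8 a change of -0.14 after UPF1 knockdown that passed the limit (adjusted p = 0.00073), where none was called without it. The call of PRPF8 between the knockdowns was lost without UPF1 knockdown replicate 1 or 2 (adjusted p = 0.0093 and 0.0098), with length-scaled counts (0.0086) and with limma on log2 TPM (0.088). The call of PRPF8 in the DHX34 knockdown was also lost on leaving out SCR replicate 1, 2 or 3 or DHX34 knockdown replicate 1 or 2 (log2 change 0.17 to 0.22, adjusted p 0.0062 to 0.019). Of the 6 fits that left out 1 library it held only without DHX34 knockdown replicate 3, the library that stood apart (0.19, adjusted p = 0.0024), and U2AF1 without that library was -0.38 (adjusted p = 0.00053).

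**Figure D2:**
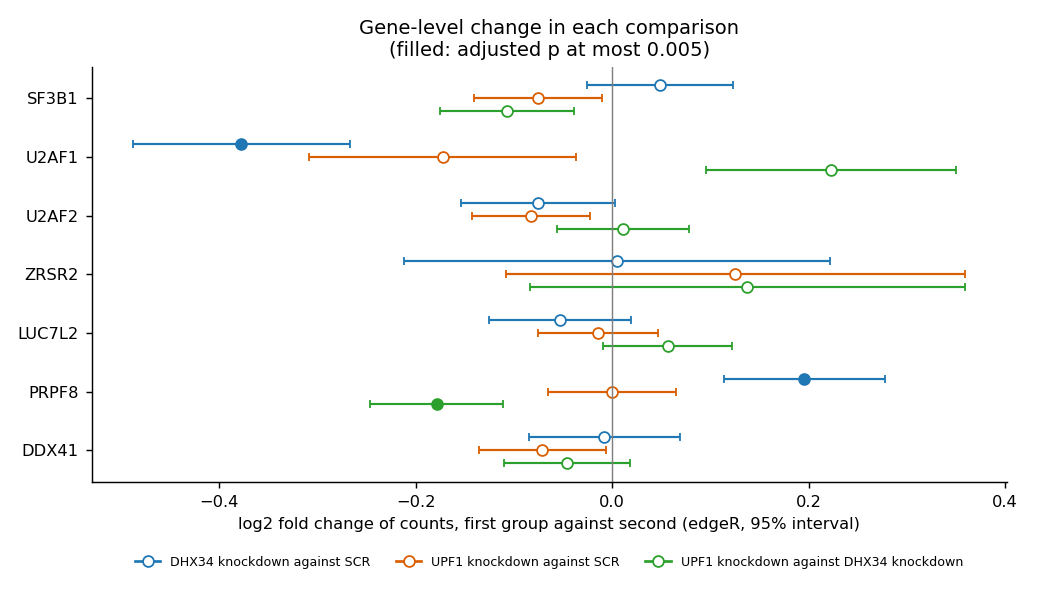
Log2 change of each of the 7 genes with its 95% interval in the 3 comparisons, from edgeR fits on 3 libraries against 3, with filled points past an adjusted p of 0.005. U2AF1 (-0.38) and PRPF8 (0.20) stand away from 0 in the DHX34 knockdown, and all intervals in the UPF1 knockdown lie between -0.31 and 0.36.

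None of the other 5 members passed the limit at the gene level. SF3B1 measured 251.4, 260.3 and 256.9 CPM in SCR, 267.1, 262.1 and 265.1 CPM after DHX34 knockdown and 237.3, 244.4 and 250.3 CPM after UPF1 knockdown. The groups did not overlap in CPM, though they did in TPM, and the log2 changes were 0.05 (95% interval -0.03 to 0.12, adjusted p = 0.34) and -0.08 (-0.14 to -0.01, adjusted p = 0.063). U2AF2, the partner of U2AF1, measured 360.3, 361.1 and 353.1 CPM in SCR, 345.7, 338.1 and 334.8 CPM after DHX34 knockdown and 345.9, 340.4 and 332.4 CPM after UPF1 knockdown. In CPM both knockdowns lay below SCR in every library, with a log2 change of -0.08 in each (adjusted p = 0.15 and 0.031). In TPM both lay above SCR in every library. U2AF2 was at 160.2 to 177.9 TPM in SCR, 181.0 to 187.4 after DHX34 knockdown and 187.1 to 194.8 after UPF1 knockdown. The direction of its change thus depends on the scale, and in TPM the median of all genes moved upward too. With the 1104-base transcript included, the change of U2AF2 in the UPF1 knockdown was -0.12 and passed the limit (adjusted p = 0.0027).

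LUC7L2 measured 254.0, 260.0 and 261.2 CPM in SCR, 250.0, 247.1 and 249.2 CPM after DHX34 knockdown and 250.6, 258.7 and 261.0 CPM after UPF1 knockdown (log2 changes -0.05 and -0.01, adjusted p = 0.28 and 0.73). DDX41 measured 128.8, 123.4 and 127.1 CPM in SCR, 126.8, 125.6 and 124.6 CPM after DHX34 knockdown and 119.4, 121.4 and 121.7 CPM after UPF1 knockdown (log2 changes -0.01 and -0.07, adjusted p = 0.90 and 0.077). In TPM, LUC7L2 and DDX41 both lay above SCR in every knockdown library, on the scale where the median of all genes moved upward as well. ZRSR2 measured 6.63, 5.62 and 6.66 CPM in SCR, 6.57, 5.99 and 6.38 CPM after DHX34 knockdown and 6.32, 7.88 and 6.48 CPM after UPF1 knockdown (log2 changes 0.01 and 0.13, adjusted p = 0.98 and 0.39). The interval of ZRSR2 in the UPF1 knockdown ran from -0.11 to 0.36, so the direction of its change in counts was not settled. In TPM, with the same upward shift over all genes, the UPF1 knockdown libraries of ZRSR2 lay above SCR (6.52 to 8.26 against 4.81 to 5.55 TPM). Its pseudogene copy ZRSR2P1 was at 0 in all libraries.

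At the level of single isoforms the spread between replicates was wider. Of 49 member isoforms tested in the DHX34 knockdown 0 passed the limit of 0.005 in edgeR, beside 0.0463% of all transcripts tested. Of these 49, 8 had an unadjusted p under 0.05, beside 9208 of all 60416 transcripts. DESeq2 called 5, beside 2763 of all, and limma on log2 TPM 0, beside 187. In the UPF1 knockdown 0 of 50 passed, beside 2.59% of all 62497 transcripts. There 12 had an unadjusted p under 0.05, beside 14202 of all. DESeq2 called 7, beside 8669, and limma on log2 TPM 1, beside 1648. Between the knockdowns 0 of 51 passed, beside 1.05% of all 64325 transcripts. Here 12 had an unadjusted p under 0.05, beside 11956 of all. DESeq2 called 5, beside 4651, and limma on log2 TPM 0, beside 943.

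Isoform usage, the log2 ratio of an isoform's TPM to that of the rest of its gene, was tested with limma at an adjusted p of 0.05. None of 16, 17 and 16 isoforms passed in the DHX34 knockdown, the UPF1 knockdown and between them, where 0.269%, 1.76% and 0.973% of all isoforms tested did. At an unadjusted p under 0.05 there were 3, 2 and 1, beside 3978 of 30115, 5814 of 30710 and 4637 of 31460 isoforms. The diffSpliceDGE test called 0 members in each, and its share over all isoforms is not given here. Splicing events (cassette exons, alternative 5′ and 3′ splice sites and retained introns) gave 35 in the 7 genes, of which 18 could be tested in at least one comparison. None of 12, 16 and 18 passed an adjusted p of 0.05 in limma, where 0.071%, 2.45% and 2.07% of all events did. Of the member events 2, 4 and 5 had an unadjusted p under 0.05, beside 2722 of 26757, 5071 of 27907 and 4720 of 28635. The values that follow are therefore descriptions of isoforms whose differences missed these limits, unless a call is stated.

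**Figure D3:**
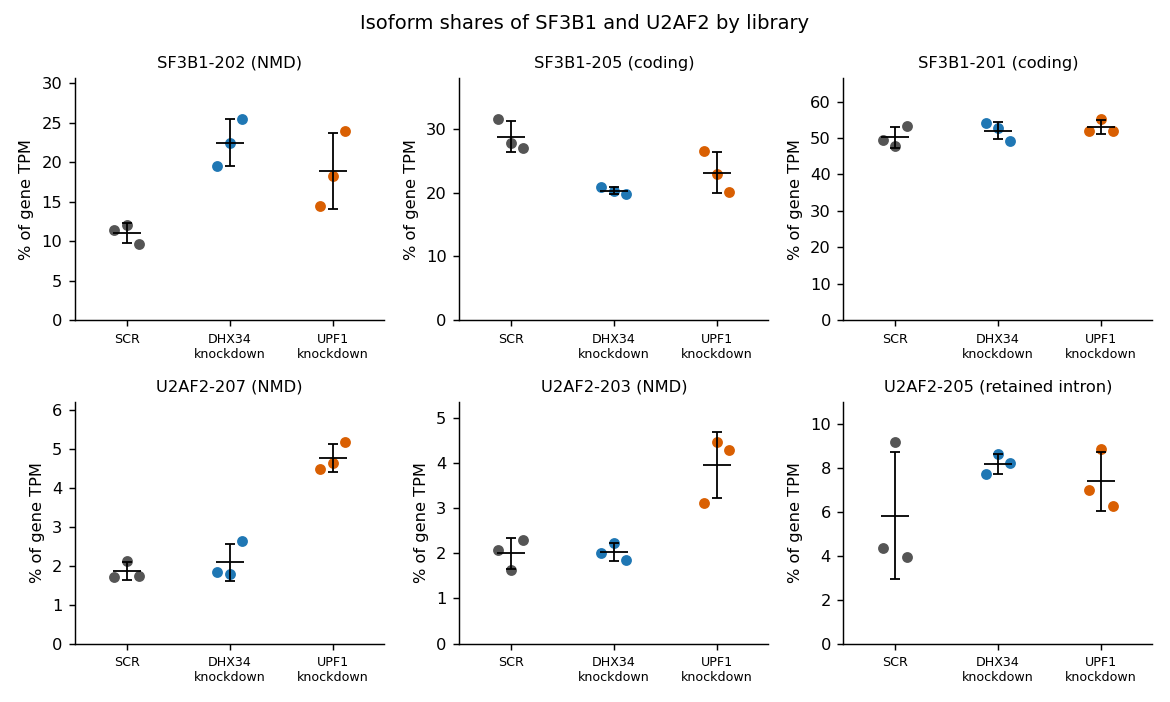
Share of the gene's TPM (%) held by 3 isoforms of SF3B1 and 3 of U2AF2, per library, for SCR, DHX34 knockdown and UPF1 knockdown, with points for libraries and the mean and SD of 3. The share of SF3B1-202 is 9.63 to 12.1% in SCR, 19.5 to 25.5% after DHX34 knockdown and 14.4 to 23.9% after UPF1 knockdown.

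SF3B1-202, an NMD isoform of 600 bases that covers the 5′ part of the gene and holds the cassette exon, took 11.4%, 12.1% and 9.63% of the gene's TPM in SCR. It took 19.5%, 22.4% and 25.5% after DHX34 knockdown and 14.4%, 18.3% and 23.9% after UPF1 knockdown. Every knockdown library of either kind was above every SCR library, and the knockdowns overlapped each other. Its transcript level had a log2 change of 1.02 with DHX34 depleted (95% interval 0.56 to 1.48, adjusted p = 0.054) and 0.59 with UPF1 depleted (-0.00 to 1.19, adjusted p = 0.22), and the usage tests gave adjusted p of 0.10 and 0.16. DESeq2 gave the DHX34 change an adjusted p of 0.00012, and it was 1 of the 5 isoforms that this tool called. These TPM rest on 220 to 250 expected counts in SCR and 277 to 656 in the knockdowns.

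The cassette exon itself lies at chr2:197418896-197418951, an exon of SF3B1-202 that the main coding isoform SF3B1-201 skips. Its inclusion (PSI, the TPM of the including form as a percentage of the including and skipping forms together, here SF3B1-202 and SF3B1-201) was 18.7%, 20.2% and 15.3% in SCR, 26.5%, 29.8% and 34.1% after DHX34 knockdown, and 21.8%, 24.9% and 31.6% after UPF1 knockdown. The mean difference was 12.04 percentage points after DHX34 depletion and 7.98 after UPF1 depletion. The fragment SF3B1-204 starts its exon at the same acceptor and is outside this PSI, at 0 to 1.45% of the gene's TPM. Among all events these differences had adjusted p of 0.31 and 0.23 in limma. The event stands in the authors' deposited lists for both knockdowns, which were made from the same libraries, so that listing is not independent of these values.

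Other SF3B1 fragments had lower shares in the knockdowns. SF3B1-205, a coding fragment of 723 bases from the 3′ part of the gene, held 31.7%, 27.9% and 27.0% in SCR, 20.9%, 20.4% and 19.8% after DHX34 knockdown and 26.5%, 22.9% and 20.1% after UPF1 knockdown (log2 changes -0.52 and -0.50, adjusted p = 0.063 and 0.062). SF3B1-209, a retained-intron fragment of 587 bases, held 4.99%, 9.39% and 7.22% in SCR and 0% to 4.15% in the knockdowns. Both were lower in every knockdown library than in every SCR library. The full-length SF3B1-201, with a deposited length of 6526 bases, held 47.8 to 53.2%, 49.3 to 54.0% and 51.8 to 55.3% in the 3 groups. A short 5′ fragment was thus higher and short 3′ fragments lower in the same libraries, and the part of read coverage along the mRNA in this was not tested.

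**Figure D4:**
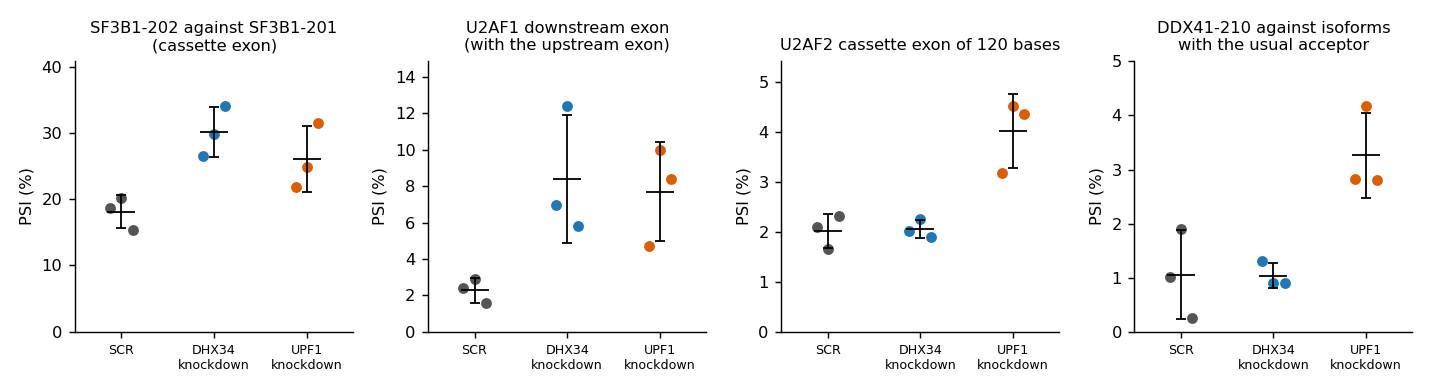
PSI (%) per library, by group, of the SF3B1 cassette exon, the downstream U2AF1 exon beside the upstream one, the 120-base U2AF2 exon and DDX41-210 against isoforms with the usual DDX41 acceptor (DDX41-219, on the same upstream acceptor, is not counted), with the mean and SD of 3 libraries. The SF3B1 cassette exon lies at 15.3 to 20.2% in SCR, 26.5 to 34.1% after DHX34 knockdown and 21.8 to 31.6% after UPF1 knockdown.

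U2AF1 is made with either of a pair of mutually exclusive exons of 67 bases, which match at 44 of 67 positions (65.7%). The main isoform U2AF1-201 uses the downstream exon (chr21:43100453-43100519) and U2AF1-202 the upstream one (chr21:43101366-43101432). U2AF1-201 held 90.2%, 87.6% and 90.4% of the gene's TPM in SCR, 87.0%, 88.1% and 91.6% after DHX34 knockdown and 89.4%, 92.5% and 90.0% after UPF1 knockdown. U2AF1-202 held 8.70%, 11.1% and 8.68%, then 10.9%, 9.31% and 6.50%, then 9.21%, 5.83% and 7.34%. The shares overlapped between all groups, and the transcript log2 changes after DHX34 knockdown were -0.41 for U2AF1-201 (adjusted p = 0.033) and -0.49 for U2AF1-202 (adjusted p = 0.38), both short of the limit for single transcripts. Both exons match those of the copy U2AF1L5 at 67 of 67 positions. Reads assigned to the copy (76.6 to 106.5 TPM in SCR) are outside these shares. The balance of the exons is therefore not settled by the shares, nor by the PSI given next.

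Forms that hold both exons were rare. The stop codon shown above is annotated in U2AF1-205, whereas the fragment U2AF1-204 has no annotated coding part and is not counted among the NMD isoforms. Inclusion of the downstream exon beside the upstream one was 2.38%, 2.90% and 1.55% in SCR, 6.97%, 12.4% and 5.83% after DHX34 knockdown and 4.71%, 10.0% and 8.39% after UPF1 knockdown. Both knockdowns lay above SCR in every library (adjusted p = 0.25 and 0.095). The authors list this event for both knockdowns and, for UPF1 knockdown, the upstream exon as well, whose PSI ran from 0.151 to 0.378% in SCR, 0.438 to 1.47% after DHX34 knockdown and 0.507 to 0.741% after UPF1 knockdown, outside the 2 to 98% range tested. These values rest on few reads: U2AF1-205 was at 0 in all libraries, and U2AF1-204, which alone supplies the inclusion form, had 2.54 to 4.76 expected counts in SCR, 5.05 to 14.1 after DHX34 knockdown and 6.47 to 12.1 after UPF1 knockdown. The PSI thus does not measure an annotated NMD form. An event of the copy, with its own pair of exons, also stands in the authors' list and was not rebuilt here.

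U2AF2 carried its NMD forms at low shares in SCR. U2AF2-207, with the 64-base extra exon (chr19:55661771-55661834), held 1.71%, 2.13% and 1.73% of the gene's TPM in SCR, 1.84%, 1.79% and 2.63% after DHX34 knockdown and 4.48%, 4.63% and 5.16% after UPF1 knockdown. All UPF1 knockdown libraries stood above all others. The log2 change was 1.30 in the UPF1 knockdown (95% interval 0.89 to 1.70, adjusted p = 0.0061) and 0.13 in the DHX34 knockdown (-0.43 to 0.70, adjusted p = 0.88), with 1.19 between them (0.74 to 1.65, adjusted p = 0.019). The first value missed the limit of 0.005 narrowly, while DESeq2 (adjusted p = 1.97e-13) and limma on log2 TPM (adjusted p = 0.0021) called it. Its deposited length is 849 bases and its length in GENCODE 44 is 3067 bases, so the extra exon is placed by the later model. U2AF2-203 uses the same acceptor, and the pair together held 3.76 to 4.03% in SCR, 3.84 to 4.48% after DHX34 knockdown and 7.59 to 9.45% after UPF1 knockdown.

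U2AF2-203 includes a 120-base exon (chr19:55658862-55658981) that holds the stop codon shown above. The PSI of that exon was 2.11%, 1.65% and 2.32% in SCR, 2.03%, 2.26% and 1.90% after DHX34 knockdown and 3.18%, 4.53% and 4.37% after UPF1 knockdown (adjusted p = 0.088 for UPF1 knockdown against SCR and 0.077 against DHX34 knockdown). Its transcript level had a log2 change of 0.94 in the UPF1 knockdown (adjusted p = 0.039) and -0.01 in the DHX34 knockdown (adjusted p = 0.99). Both isoforms and this exon were picked after their values were seen. The coding forms took most of the gene: U2AF2-202 held 48.6 to 51.4%, 45.4 to 47.9% and 46.5 to 47.8% in the 3 groups, and U2AF2-201 held 37.1 to 39.8%, 36.8 to 40.5% and 33.9 to 35.4%. Their log2 changes after UPF1 depletion were -0.14 (adjusted p = 0.017) and -0.21 (adjusted p = 0.0096).

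The U2AF2 event with the largest difference in PSI was a 12-base alternative 5′ splice site (chr19:55669170-55669181) that separates U2AF2-201 from U2AF2-202. The longer form made up 42.8%, 42.3% and 42.9% in SCR, 44.4%, 46.2% and 42.2% after DHX34 knockdown and 40.4%, 39.9% and 39.7% after UPF1 knockdown, at adjusted p of 0.88 and 0.64. The difference between the knockdowns was -4.24 percentage points (adjusted p = 0.50). U2AF2-205, a retained-intron fragment, held 3.94 to 9.15% in SCR, 7.71 to 8.61% after DHX34 knockdown and 6.26 to 8.87% after UPF1 knockdown.

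ZRSR2 had its reads on few isoforms. ZRSR2-201, the full coding form, held 87.4%, 90.4% and 89.9% in SCR, 84.9%, 90.8% and 90.3% after DHX34 knockdown and 81.5%, 79.9% and 83.3% after UPF1 knockdown, where it was lower in every library (usage log2 change -0.49, adjusted p = 0.12). ZRSR2-202 held 9.57 to 12.6%, 9.21 to 13.2% and 11.7 to 14.7%. ZRSR2-203, a fragment that uses another 3′ splice site (69 bases, chrX:15790865-15790933), was at 0 in SCR, at 1.91%, 0% and 0% after DHX34 knockdown and at 6.80%, 6.69% and 2.04% after UPF1 knockdown (event adjusted p = 0.31). The last shares rest on 1.42 to 5.47 expected counts per library, which is too few to show a difference.

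LUC7L2 was held mainly by the coding isoform LUC7L2-202, at 69.0%, 66.1% and 61.1% in SCR, 63.2%, 60.7% and 63.5% after DHX34 knockdown and 60.6%, 58.9% and 61.9% after UPF1 knockdown. Its transcript log2 change in the UPF1 knockdown was -0.11 (adjusted p = 0.043). The retained-intron fragment LUC7L2-203 (570 bases) held 23.4%, 27.0% and 33.3% in SCR, 30.1%, 33.2% and 30.8% after DHX34 knockdown and 32.6%, 32.7% and 29.4% after UPF1 knockdown, and the SCR libraries spanned most of that range. LUC7L2-210 held 3.60 to 6.08% over the 9 libraries. The event with the largest difference was a 71-base cassette exon (chr7:139374401-139374471) at 6.42 to 7.07%, 5.37 to 7.33% and 7.29 to 9.36% in the 3 groups (adjusted p = 0.97 in the DHX34 and 0.39 in the UPF1 knockdown).

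PRPF8 came almost wholly from 1 isoform. PRPF8-201 held 89.7%, 91.3% and 93.5% in SCR, 91.5%, 91.7% and 91.4% after DHX34 knockdown and 91.9%, 91.7% and 91.3% after UPF1 knockdown. Its log2 change was 0.18 in the DHX34 knockdown (adjusted p = 0.077) and -0.19 between the knockdowns (adjusted p = 0.014). None of its 4 events could be tested, since one form held nearly all the TPM. The largest difference was at a 180-base exon (chr17:1661611-1661790) whose PSI was 97.9 to 99.4% in SCR, 98.1 to 98.7% after DHX34 knockdown and 97.4 to 98.2% after UPF1 knockdown.

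DDX41 spread over more isoforms. The full coding form DDX41-201 held 35.9%, 38.96% and 36.9% in SCR, 36.8%, 37.9% and 33.9% after DHX34 knockdown and 36.7%, 36.2% and 38.98% after UPF1 knockdown. The fragments DDX41-219 (22.6 to 34.8% over the 9 libraries), DDX41-206 (10.1 to 21.2%) and DDX41-207 (5.11 to 10.5%) overlapped between the groups, except that DDX41-207 was below SCR in all 3 DHX34 knockdown libraries. The event with the largest difference was a retained intron (chr5:177516517-177516724), at 53.2%, 58.1% and 62.5% in SCR, 68.7%, 41.9% and 47.1% after DHX34 knockdown and 51.4%, 21.03% and 44.9% after UPF1 knockdown (adjusted p = 0.85 and 0.33). The UPF1 knockdown libraries lay below SCR, but the DHX34 knockdown libraries overlapped both, and its forms together held a mean of 2.16 TPM.

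The upstream 3′ splice site of DDX41, 81 bases before the usual one, is used by the NMD isoform DDX41-210 and by the fragment DDX41-219, annotated as coding, which ends at the same stop codon. Together they held 23.4 to 30.5% of the gene's TPM in SCR, 26.7 to 35.3% after DHX34 knockdown and 27.7 to 33.7% after UPF1 knockdown, nearly all of it DDX41-219, and the groups overlapped. DDX41-210 alone, set against the isoforms with the usual acceptor, was at 1.01%, 1.90% and 0.249% in SCR, 1.30%, 0.903% and 0.910% after DHX34 knockdown and 2.83%, 4.18% and 2.80% after UPF1 knockdown. The UPF1 knockdown lay above both other groups in every library, at an adjusted p of 0.15 against SCR and 0.051 against the DHX34 knockdown. The isoform had 5.78 to 35.5 expected counts in SCR, 17.8 to 34.8 after DHX34 knockdown and 54.6 to 103.6 after UPF1 knockdown. This event leaves DDX41-219 out, so it does not measure use of the site, and it was picked after its values were seen.

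All isoforms annotated as NMD substrates were then summed per gene, in the 5 members that have any (PRPF8 and ZRSR2 have none measured). In SF3B1 they held 11.4%, 12.9% and 9.98% in SCR, 19.8%, 22.4% and 25.5% after DHX34 knockdown and 14.4%, 19.1% and 23.9% after UPF1 knockdown. In U2AF2 they held 3.79%, 3.76% and 4.03% in SCR, 3.84%, 4.02% and 4.48% after DHX34 knockdown and 7.59%, 9.08% and 9.45% after UPF1 knockdown. In DDX41 they held 3.82%, 4.79% and 3.30% in SCR, 3.66%, 3.44% and 4.94% after DHX34 knockdown and 5.81%, 7.53% and 6.37% after UPF1 knockdown. The UPF1 knockdown libraries were thus above SCR in all 3 of these genes, and the DHX34 knockdown libraries in SF3B1.

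The summed share was higher without overlap in 1 of 5 members in the DHX34 knockdown, against 6.98% of 4811 genes. It was higher without overlap in 3 of 5 in the UPF1 knockdown, against 28.8%, and in 2 of 5 (U2AF2 and DDX41) in the UPF1 against the DHX34 knockdown, against 26.9%. The exact two-sided permutation p was 0.1 wherever the groups did not overlap, the smallest that 3 libraries against 3 allow. In LUC7L2 the NMD share stayed at 0.297 to 0.762% over the 9 libraries, and in U2AF1 it was 0% in SCR and after DHX34 knockdown and at most 0.598% after UPF1 knockdown.

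The proteins that work beside the 7 factors were taken as a list of 39 genes. After DHX34 depletion 0 of the 39 rose and 2 fell, both of the SF3b complex of SF3B1: PHF5A (log2 change -0.32, adjusted p = 0.00089) and SF3B6 (-0.28, adjusted p = 0.00086). Of all genes 10.4% passed in this comparison, a larger share than 2 of 39. Both calls were lost without SCR replicate 1 or 3 or DHX34 knockdown replicate 1 (adjusted p up to 0.0061 for PHF5A and 0.0060 for SF3B6), and without DHX34 knockdown replicate 3 SF1 also passed, upward. With the length trend removed these were -0.23 (adjusted p = 0.0022) and -0.17 (adjusted p = 0.0053), the latter just outside the limit. The other 37 missed it. The median over the list was -0.05, against 0.02 over all genes.

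After UPF1 depletion 3 of the 39 rose and 11 fell, where 25.3% of all genes passed, with a median of -0.08 against 0.02 over all genes. U2AF1L4, a paralogue of U2AF1, measured 6.37, 7.58 and 5.35 CPM in SCR, 6.55, 6.30 and 6.94 CPM after DHX34 knockdown and 14.1, 11.5 and 11.2 CPM after UPF1 knockdown. Only the UPF1 knockdown stood apart, with a log2 change of 0.93 (SE 0.13, adjusted p = 9.0e-05). RBM39, a U2AF2-related protein at 3′ splice sites, measured 189.5, 195.5 and 198.7 CPM in SCR, 184.4, 182.8 and 191.8 CPM after DHX34 knockdown and 238.2, 242.8 and 243.0 CPM after UPF1 knockdown, a log2 change of 0.31 (adjusted p = 4.9e-06). The largest falls were those of SF3B6 (-0.36, adjusted p = 1.7e-05) and SNRNP35, a protein of the minor U11/U12 snRNP (-0.35, adjusted p = 0.0024, or 0.0074 with the length trend removed). The call of SNRNP35 was lost without SCR replicate 1 or 3 or UPF1 knockdown replicate 2 or 3 (adjusted p up to 0.014).

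By group, 3 of 12 SF3 partners fell and 0 rose in the UPF1 knockdown, close to the 25.3% of all genes. Of 5 partners at the 3′ splice site 2 rose and 1 fell. Of 5 genes of the U1 snRNP and LUC7 family 0 rose and 3 fell, of 9 of U5 and the tri-snRNP 0 rose and 2 fell, and of 8 of the minor spliceosome 1 rose and 2 fell. Between the knockdowns, UPF1 minus DHX34, 5 of the 39 were higher and 4 lower, where 17.4% of all genes passed. U2AF1L4 (0.91) and RBM39 (0.38) were the highest and SNRNP70, the 70-kDa protein of U1 (-0.21), and SF3B4 of the SF3b complex (-0.20) the lowest of those that passed, and SF3B4 was lost on leaving out any library other than DHX34 knockdown replicate 3 (adjusted p 0.0059 to 0.013).

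**Figure D5:**
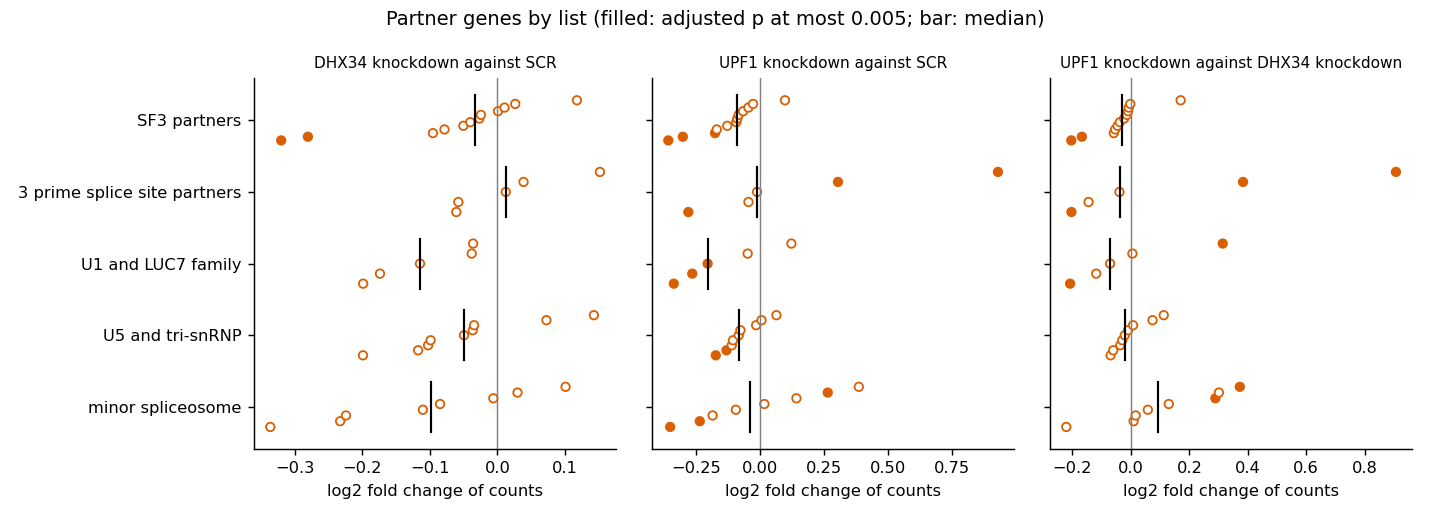
Log2 change of the 39 partner genes, by complex, in a panel for each of the 3 comparisons, from edgeR fits on 3 libraries against 3, with filled points past the limit of 0.005 and a bar at the median of each list. Among those that passed, U2AF1L4 (0.93) and RBM39 (0.31) lie highest in the UPF1 knockdown against SCR, and PHF5A (-0.32) and SF3B6 (-0.28) are those that passed in the DHX34 knockdown.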

How the data were processed

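Poly(A) libraries of 9 cultures of K562 cells were analysed, grouped by their titles. The authors quantified the reads with Salmon against Ensembl 93 cDNA on GRCh38 and deposited an expected count and a TPM per transcript. The authors' deposited sleuth and SUPPA2 tables hold their own fold changes, p-values and PSI differences, and these values were not used. Only identifiers were taken: event coordinates to mark events, and transcript and gene names to assign transcripts outside GENCODE 44. The 203027 transcripts were joined by identifier to GENCODE 44 (97.9% matched, of which 85.8% had the same length), so structures can differ from those the reads were assigned to. Moving reads between similar isoforms changes both counts and TPM.

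Expected counts were rounded and, for genes, summed. Each pair of groups was fitted alone in edgeR 4.0.16 (TMM, filterByExpr with a minimum count of 10, quasi-likelihood test, Benjamini-Hochberg over all features, limit 0.005). Usage and events were fitted with limma 3.58.1 on log2 ratios of TPM with a pseudocount of 0.5 (limit 0.05), for isoforms of at least 5% share and events of 2 to 98% PSI, in genes or events of at least 1 TPM. Events were rebuilt from GENCODE. DESeq2 1.42.0 and the other alternatives are described at the end.

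The members and lists were chosen with earlier results of these data known. Named were all 7 members, isoforms of at least 5% mean share in a group, events listed by the authors or, for a member without one, that with the largest PSI difference, the 2 largest called changes of partners in each direction, and the 3 genes most like each called member.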

Additional observations from a re-analysis of the deposited data

How the results depend on the processing

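U2AF1 kept its fall in the DHX34 knockdown without each library in turn (log2 change -0.43 to -0.33) and lost the call only with limma on log2 TPM (-0.23, adjusted p = 0.026); over its alternatives the adjusted p ran up to that value. That scaling shifted the median of all genes by 0.13 in the DHX34 and 0.17 in the UPF1 knockdown and put 87.0% and 91.7% of all calls upward (791 of 909 and 3263 of 3560, against 942 of 1768 and 2131 of 4345 in edgeR). Between the knockdowns it put 997 of 1424 upward, against 1724 of 3026. The only reversal with a call was there: LUC7L2 in the UPF1 knockdown was 0.25 (adjusted p = 0.0046) in place of -0.01. U2AF2 also lay above SCR in TPM in both knockdowns, without a call. With libraries centred on their median, an alternative added after seeing the data, the all-gene median became -0.11 and -0.12, calls were upward for 114 of 577 and 712 of 2869, and LUC7L2 was -0.04 (adjusted p = 0.59). The cause was not tested.

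Of the 7 genes, 2 were called in the DHX34 knockdown, but 1 with length-scaled counts, with centred log2 TPM, with the length trend removed and with the replicate block, and 0 with limma on log2 TPM. In the UPF1 knockdown, where 0 were called, DESeq2, no filter on low counts, limma on log2 TPM and U2AF1 summed with its copy each called 1, a limit of 0.05 and the transcripts paired in the deposited tables (added after seeing the data) 2, and removal of the length trend 3 (PRPF8 -0.14, SF3B1 -0.14, U2AF2 -0.12). Between the knockdowns, where 1 was called, a limit of 0.05 and DESeq2 gave 3, no filter 2, and length-scaled counts, log2 TPM and centred log2 TPM 0. Over all genes a limit of 0.05 called 6917 of 17184 in the UPF1 knockdown and 5691 of 17435 between the knockdowns. DESeq2 called 5099 and 3979 of these, and removal of the length trend 4294 in the UPF1 knockdown. Leaving out 1 library gave 1 to 2, 0 to 0 and 0 to 2 of the 7 genes. PRPF8 between the knockdowns was lost without UPF1 knockdown replicate 1 or 2 (adjusted p 0.0093 and 0.0098), and U2AF1 there gave adjusted p from 0.00068 to 0.060.

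For isoforms, where 0 were called in each comparison, a limit of 0.05 gave 1, 5 and 4 and DESeq2 5, 7 and 5. Over all transcripts that limit gave 1582, 6435 and 3747 and DESeq2 2763, 8669 and 4651. In the UPF1 knockdown limma on log2 TPM gave 1 and centred log2 TPM 2, beside 1648 and 2056 of all transcripts. Usage with no minimum share gave 1 in the UPF1 knockdown, and events with no limits on PSI gave 1 between the knockdowns. The shares of all isoforms and events called under these settings are not given here, so neither count is read as a result about the members. Leaving out 1 library gave 0 to 0 in all of these, usage and events included. Over 74 single values and 1041 alternatives, 979 stayed on their side of the limit, 16 fell below it, 45 passed it and 1 reversed, while 73 had the other sign, nearly all of values that were not called.

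With replicate number as a block, 1 gene was called in the DHX34 knockdown (U2AF1 -0.38, adjusted p = 0.0015; PRPF8 0.20, adjusted p = 0.016), 0 in the UPF1 knockdown and 1 between the knockdowns. Deviations of libraries of the same number from their group means had correlations of -0.43 to 0.27 over 9 pairs, with 3 of 9 closest to their own number. Replicates 1 and 3 of the UPF1 knockdown and SCR were among these (0.255 and 0.273). With 3 libraries per group these correlations cannot settle whether the numbers pair the samples. The depth limits ZRSR2 and the isoforms under 20 expected counts.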
